A study of Mus musculus with 15 samples.

Results

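The genes described here are the nuclear-encoded subunits of the 5 respiratory chain complexes, together with cytochrome c. They were chosen by symbol from the deposited table of gene counts: the Nduf subunits of complex I, the Sdh subunits of complex II, the Uqcr subunits of complex III with Cyc1, the Cox subunits of complex IV, the Atp5 subunits of ATP synthase (complex V), and Cycs, without pseudogenes and with at least 150 counts in total over the 15 libraries. Of 24498 genes in the table, 86 symbols matched and 82 had enough counts. The members comprised 34 genes of complex I, 4 of complex II, 9 of complex III, Cycs, 16 of complex IV (with Ndufa4 and Ndufa4l2, which are complex IV proteins despite their names), 15 of complex V and 3 others that the symbols bring in (Atp5s, Atp5sl and Cox7a2l). Just inside the minimum were Ndufa4l2 with 497 counts and Atp5l with 998, and just outside were Cox4i2 with 123, Cox7b2 with 74, and Cox8c and Ndufs5 with 0 each. All 82 members passed the filter on low counts and were among the 15075 genes tested. The symbol pattern does not take in Ndufab1, and the subunits encoded by mitochondrial DNA were not analysed here.

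The study measured RNA in primary mouse hippocampal neurons, plated by a university neuronal core and kept in neurobasal medium with GlutaMAX and B27, a serum-free supplement. After 7 days of differentiation the cells received, for 24 h, either 5 mM acetate or medium as vehicle, each together with either 20 µM of an inhibitor of ACSS2 or DMSO. ACSS2 is the enzyme that makes acetyl-CoA from acetate in the cytosol and nucleus, and the series asks what acetate, a product of alcohol metabolism, does to neuronal gene expression with and without it. Of the DMSO cultures 4 libraries had vehicle and 4 acetate; of the inhibitor cultures 3 had vehicle and 4 acetate. The labels name the inhibitor only by its target. Nothing in them says that replicates came from separate cultures, so the p-values measure the spread between these libraries, which may be technical.

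Complexes I and II pass electrons from NADH and succinate to ubiquinone, complex III hands them on to cytochrome c, and complex IV gives them to oxygen, while complexes I, III and IV pump the protons that drive ATP synthase. Most subunits are encoded in the nucleus and imported into the mitochondrion, and a few of complexes I, III, IV and V are made there. Neurons rely heavily on this pathway for the ATP that ion pumping and synapses use.

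Gene counts per library ranged from 19688231 to 39234799 with a median of 22722121, so the members, which held between 1.66% and 2.26% of them, were deeply counted. Levels are given as CPM (gene counts scaled to a common library size, here with TMM factors), and differences as log2 folds with standard errors. A gene passed where edgeR's quasi-likelihood test gave it an adjusted p (Benjamini-Hochberg, over all 15075 genes tested) under 0.05. All 14 neuronal markers were detected in every library, with summed levels from 5459 to 12218 CPM. Markers of other cell types were also present and moved with acetate, though not all alike. The 10 microglial markers summed to 109 to 531 CPM in DMSO vehicle libraries and 13.7 to 28.1 CPM in DMSO acetate libraries. The 10 astrocyte markers summed to 4040 to 11386 CPM against 3099 to 3962 CPM. Taken singly, 5 astrocyte markers fell, 0 rose and 3 had folds above 0, and their median log2 fold was only -0.31. The oligodendrocyte sums were mostly higher with acetate, at 706 to 991 CPM against 284 to 879 CPM in vehicle. Yet 7 of the 9 oligodendrocyte markers tested fell and 0 rose, so a sum need not follow its single markers. No microglial marker was at 0 in any vehicle library, and at most 1 of 10 was at 0 in an acetate library. With the inhibitor, the microglial sums ran from 6.2 to 412 CPM in vehicle and from 9.5 to 42.0 CPM in acetate. Inhibitor vehicle 2 stood apart from the other 2 libraries of its group: its mean log2 CPM over the non-neuronal markers was 1.81 against 3.66 and 3.96, and its share of gene counts on the members was 2.13% against 1.72% and 1.66%. DMSO vehicle 1 also stood apart, with a non-neuronal mean of 3.04 against 3.91 to 4.12 in the rest of its group. For the comparisons these libraries enter, counts of members called are also given without 1 or both of them. Most folds and medians are given only with them. Reads aligned to several places moved with the members' share too: they were 25.9% to 27.7% of all reads counted in DMSO acetate against 25.0% to 26% in DMSO vehicle, and 29.3% in inhibitor vehicle 2 against 24.4% and 24.6% in the other 2 libraries of its group. Their part in the members' folds was not tested.

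In the DMSO vehicle cultures, members differed widely in level per kilobase of transcript, from 1107 ± 89.4 CPM per kb for Cox4i1, a regulatory subunit of complex IV, down to 1.49 ± 0.402 for Ndufa4l2, a paralog of Ndufa4 known from hypoxic cells (means ± SD, n = 4). The beta subunit of ATP synthase, Atp5b, was the next highest at 769 ± 62.9 CPM per kb. It did not stand clear of Cox6b1 (751 ± 50.6), Cox6a1 (740.2 ± 101) and Cox8a (722 ± 84.7), whose means were within 1 SD of it or of each other. The flavin subunit Sdha of complex II was at 68.4 ± 3.06 and its membrane anchor Sdhc at 58.5 ± 1.56 CPM per kb, and Ndufs1, the largest iron-sulphur subunit of complex I, at 20.7 ± 2.46. Cycs, which encodes the cytochrome c that shuttles between complexes III and IV, was lower still at 11.8 ± 0.998 CPM per kb.

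Several subunits come in isoforms, and the general form held most of the level per kilobase in every pair. Cox6a2, Cox7a1 and Cox8b, known as heart and muscle forms, held 2.14% ± 0.559, 2.85% ± 0.754 and 1.45% ± 0.338 of their pairs in the DMSO vehicle libraries (SD, n = 4). The testis form Cox6b2 held 5.60% ± 0.394. The c subunit, which forms the rotating ring of ATP synthase, is encoded by 3 genes that yield the same mature protein, and Atp5g3 held 54.0% ± 1.39 of their summed level, Atp5g1 40.8% ± 1.20 and Atp5g2 5.29% ± 0.332. With acetate in DMSO these shares were 53.4% ± 1.95, 41.7% ± 1.76 and 4.95% ± 0.469, with overlapping ranges for each gene. Genes with near-identical copies are uncertain, since reads that align to several places, between 24.4% and 29.3% of all reads counted per library, were not assigned to genes. Atp5l, at 2.05 to 2.68 CPM in the DMSO vehicle libraries, and Ndufs5, at 0 counts, may be affected, which was not tested.

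RefSeq promoter windows of 300 bases, from 250 before to 50 after the start of the gene (GRCm38.p6), were matched for 68 of the 82 members. The windows were searched on both strands for binding motifs of factors known to act at respiratory genes. The core motif of nuclear respiratory factor 1 with 1 free base (CGCANGCG, which contains the strict form CGCATGCG) was in 24 of 68 member windows, or 35.3%, against 16.6% of 11447 tested genes and 8.42% of all 27025 windows. The strict form was in 9, or 13.2%, against 3.68% of tested genes and 1.91% of all windows. The ETS motif CCGGAAG, which GABP binds, was in 15, or 22.1%, against 16.3% and 9.12%. The motif AANATGGCG of YY1 was in 9, or 13.2%, against 4.75% and 2.51%, with 6 of the 9 in complex I. The motif GGGCGG of SP1 was in 28 windows, or 41.2%, against 63.4% and 35.9%, and the E-box CACGTG in 7, or 10.3%, against 9.91% and 7.24%. By complex, the free-base NRF1 motif was in 9 of 30 windows for complex I, 2 of 3 for complex II, 3 of 5 for complex III, 1 of 12 for complex IV and 7 of 14 for complex V. A match is a description of these letters and shows no binding. Stretches of 6 promoters are shown because their genes span the range of complexes and of acetate responses given below. Capitals mark the free-base NRF1 motif in Ndufb4, Cox6a1 and Atp5h and the ETS motif in Uqcr11 and, on the other strand, Sdhd, while the stretch of Atp5b has neither. They lie at chr16:37654454-37654563 for Ndufb4, chr9:50603850-50603909 for Sdhd, chr10:80406831-80406940 for Uqcr11, chr5:115348982-115349091 for Cox6a1 and chr11:115419963-115420072 for Atp5h, all on the minus strand, and at chr10:128083163-128083272 on the plus strand for Atp5b.
Ndufb4: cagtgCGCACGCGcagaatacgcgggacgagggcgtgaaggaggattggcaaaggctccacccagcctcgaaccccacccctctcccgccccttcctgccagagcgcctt
Sdhd: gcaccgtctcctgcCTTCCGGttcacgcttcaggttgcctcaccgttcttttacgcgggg
Uqcr11: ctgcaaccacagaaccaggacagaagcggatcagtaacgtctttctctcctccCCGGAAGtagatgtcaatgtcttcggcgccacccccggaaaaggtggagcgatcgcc
Cox6a1: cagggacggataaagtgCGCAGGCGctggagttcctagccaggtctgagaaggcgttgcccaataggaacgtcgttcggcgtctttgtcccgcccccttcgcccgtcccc
Atp5h: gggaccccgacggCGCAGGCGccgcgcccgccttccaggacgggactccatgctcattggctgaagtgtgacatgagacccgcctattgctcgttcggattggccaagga
Atp5b: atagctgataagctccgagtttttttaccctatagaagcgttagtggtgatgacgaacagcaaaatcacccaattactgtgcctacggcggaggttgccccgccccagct

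Acetate in the DMSO cultures went with higher transcript levels across the chain on the TMM scale: 69 of the 82 members rose and 0 fell, against 23.7% of all tested genes that rose and 27.5% that fell. The members' median log2 fold was 0.48, against -0.03 over all genes tested, and in 66 of 82 every acetate library was above every vehicle library, against 22.1% of all genes. Scaled on the neuronal markers instead, the members' median was -0.38, with 0 raised and 63 lowered, against 1.03% and 86.6% of all genes, and the median of all genes moved to -0.90. This scaling holds the summed counts of the 14 markers level, so markers with many counts weigh most. Folds under it are relative to that sum and not to the typical marker. Relative to the median of all genes, the members stood 0.52 higher with TMM. A change of scaling moves all genes of a library alike, so the 0.53 with the neuronal scaling is not a separate result. The neuronal markers themselves had a median log2 fold of 0.67, with 12 of 14 raised, and all 9 tested microglial markers fell, with a median of -4.58. With the non-neuronal marker mean as a covariate, 4 members rose (Ndufv3, Cyc1, Atp5d and Atp5g2), against 7.18% of all genes, and the members' median was 0.12. That mean was 1.99 to 2.09 in DMSO acetate and 3.04 to 4.12 in DMSO vehicle, so it nearly tracked acetate. Its SD within groups was 0.04 and 0.14 in acetate and 0.51 and 1.17 in vehicle. Fits with it, here and below, rest largely on DMSO vehicle 1 and inhibitor vehicle 2 and cannot separate acetate from cell content. In bulk RNA, fewer cells of a type and less RNA per cell cannot be told apart, and the part of the shift in cell markers in these folds was not tested further.

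**Figure D1:**
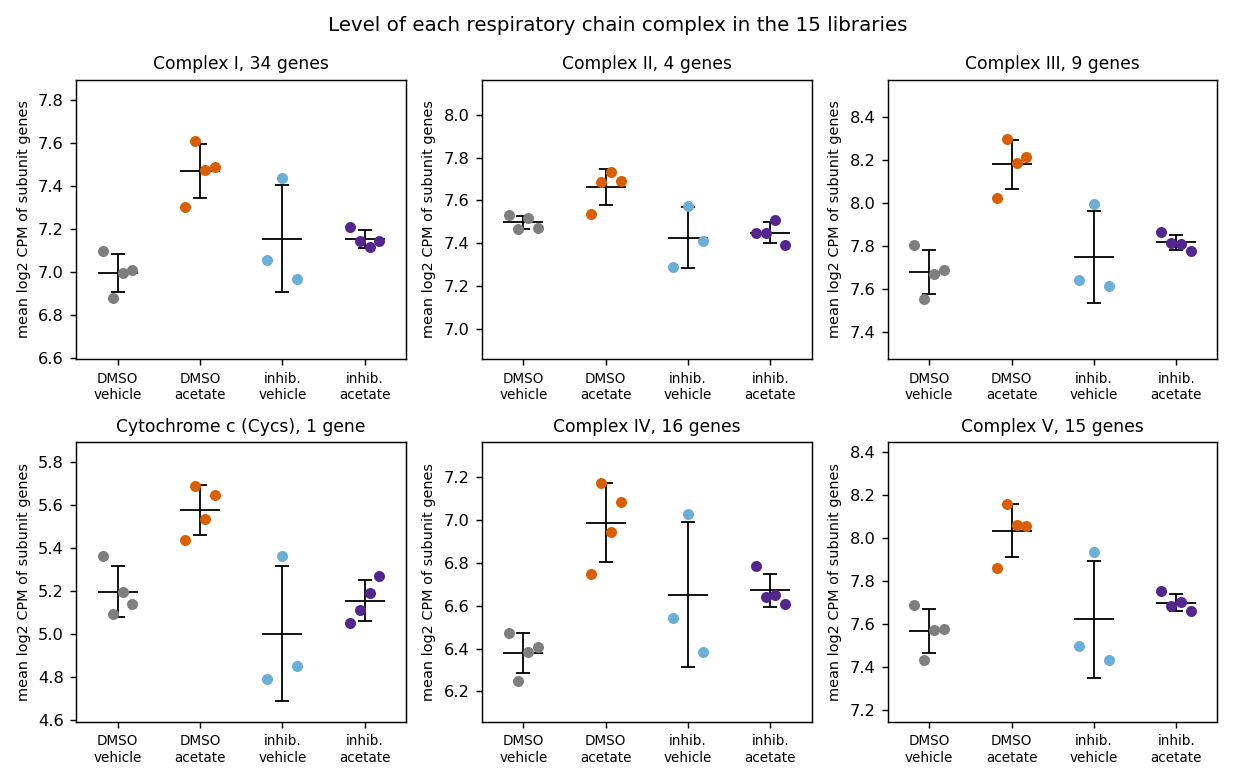
Mean log2 CPM over the members of each complex (vertical axis) in each of the 15 libraries, by treatment group, with bars for the group mean ± SD. With TMM scaling the DMSO acetate group averaged 7.47 for complex I against 7.00 in DMSO vehicle, and 1 inhibitor vehicle library sits well above the other 2; scaled on neuronal markers, the complexes' median folds for acetate in DMSO were below 0.

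The mean level of complex I over its 34 genes was 7.47 ± 0.13 log2 CPM with acetate and 7.00 ± 0.09 with vehicle in the DMSO cultures (SD, n = 4 each). Complex IV went from 6.38 ± 0.09 to 6.98 ± 0.18, complex III from 7.68 ± 0.10 to 8.18 ± 0.11 and complex V from 7.57 ± 0.10 to 8.03 ± 0.12. Complex II moved less, from 7.498 ± 0.03 to 7.66 ± 0.08. The groups did not overlap in any of these complexes, and the step from vehicle to acetate for complex II was smaller than for each of the others. In complex II they almost touched, with the highest vehicle library at 7.530 and the lowest acetate library at 7.539.

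Complex I had 31 of its 34 genes raised (median log2 fold 0.47, and -0.39 when scaled on the neuronal markers). The accessory subunits, which surround the catalytic core, had 26 of 27 raised with a median of 0.54, and the core subunits 5 of 7 with a median of 0.34. Ndufv3, a small accessory subunit beside the flavin site, was at 149, 126, 142 and 141 CPM in the vehicle libraries and 240.5, 298, 253 and 249 CPM in the acetate libraries. Its 4 acetate libraries were all above its 4 vehicle libraries, and it had the largest fold of the complex, 0.90 (SE 0.12, edgeR adjusted p = 4.84e-05). Ndufa11 (chr17:56717767-56722141 of GRCm38, plus strand), an accessory subunit of the membrane arm, was at 175, 137, 156 and 168 CPM in vehicle and 243, 323, 273 and 279 CPM in acetate. The groups did not overlap, and the log2 fold was 0.81 (SE 0.13, edgeR adjusted p = 0.000227). Ndufc1 and Ndufb4, both of the membrane arm, rose by 0.76 and 0.73 (SE 0.14 and 0.16).

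Core subunits of complex I that rose included Ndufs7, which carries the last iron-sulphur cluster before ubiquinone, by 0.43 (SE 0.10), and Ndufv1, which binds NADH and the flavin, by 0.30 (SE 0.08). Ndufs4, an accessory subunit whose loss causes Leigh syndrome, rose by 0.37 (SE 0.10). Ndufs1 (chr1:63143596-63176833, minus strand) was at 62.0, 58.2, 53.1 and 46.9 CPM in vehicle and 59.97, 61.9, 65.4 and 68.3 CPM in acetate. Its groups overlapped and its fold of 0.21 (SE 0.11) did not pass. The other 2 members of the complex that did not pass were Ndufs3, a core subunit of the matrix arm, at -0.01 (SE 0.07), and the accessory subunit Ndufa10 at 0.05 (SE 0.07).

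Complex II, the succinate dehydrogenase that also works in the citric acid cycle, had 1 of its 4 genes raised (median log2 fold 0.16, and -0.70 when scaled on the neuronal markers). Sdhc, one of its membrane anchors, was at 191, 179.8, 187 and 183 CPM in vehicle and 226, 245, 246 and 249 CPM in acetate. The groups did not overlap and the fold was 0.38 (SE 0.07, edgeR adjusted p = 0.000429). Sdha (chr13:74322254-74350280, minus strand), the flavin subunit that oxidises succinate, was at 209, 199, 198 and 187 CPM in vehicle and 181, 188, 207 and 194 CPM in acetate. The ranges of the groups overlapped almost fully, with a fold of -0.04 (SE 0.08). The iron-sulphur subunit Sdhb had a fold of 0.19 (SE 0.08, edgeR adjusted p = 0.0760) and the anchor Sdhd one of 0.13 (SE 0.08), and neither passed. A difference between complex II and the other complexes was not tested. Its transcripts are 1142 to 3171 nt long, against a median of 786 nt over the members, and longer members had smaller folds, as given below. The part of length here was not tested.

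Complex III had 8 of its 9 genes raised (median 0.51, and -0.34 when scaled on the neuronal markers). Uqcr11 (chr10:80402997-80406830, minus strand), a small subunit whose promoter stretch with the ETS motif is printed above, was at 217, 181, 199.5 and 207 CPM in vehicle and 297, 432, 344 and 356 CPM in acetate. All 4 acetate libraries were higher, most of all DMSO acetate 2, and the fold was 0.83 (SE 0.13, edgeR adjusted p = 0.000221). Cyc1 (chr15:76343523-76346260, plus strand), cytochrome c1, which passes electrons to cytochrome c, was at 294, 223, 267 and 262 CPM in vehicle and 363, 397, 369 and 364 CPM in acetate. Its groups lay far apart relative to their spread, with a fold of 0.51 (SE 0.08, edgeR adjusted p = 0.000138). Of the remaining catalytic and core proteins, the Rieske iron-sulphur protein Uqcrfs1 rose by 0.36 (SE 0.10) and the core protein Uqcrc1 by 0.42 (SE 0.08), while Uqcrc2, the other core protein, had 0.14 (SE 0.06) and did not pass. Cycs (chr6:50562563-50566538, minus strand) was at 41.1, 34.0, 36.6 and 35.1 CPM in vehicle and 43.2, 51.6, 46.3 and 50.1 CPM in acetate and rose by 0.38 (SE 0.11, edgeR adjusted p = 0.0112). Its fold was -0.47 when scaled on the neuronal markers and -0.062 with the non-neuronal covariate.

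**Figure D2:**
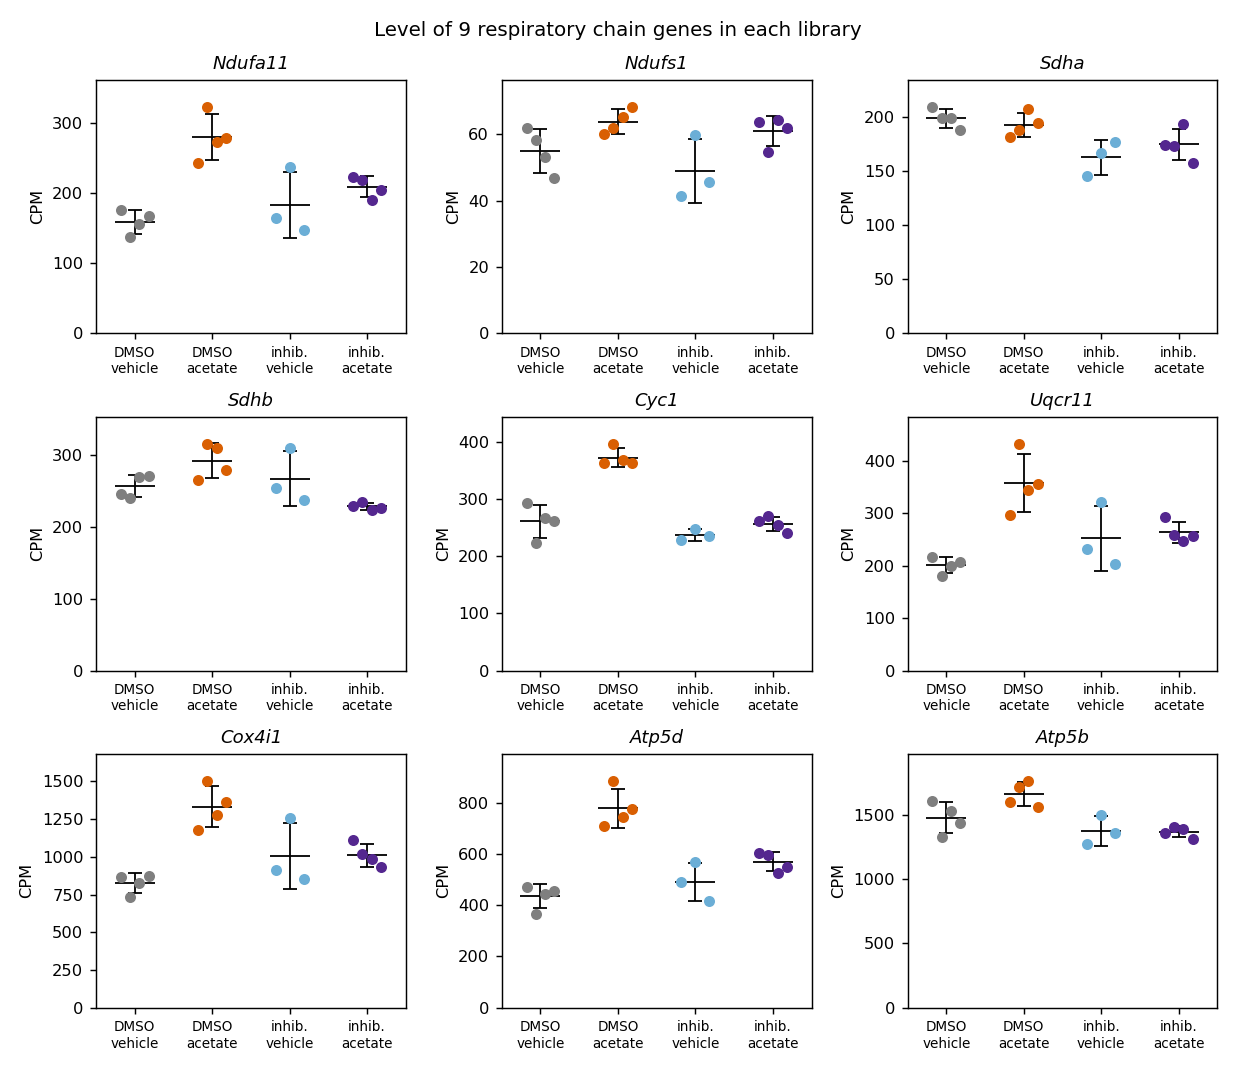
CPM of 9 members (vertical axes) in every library of the 4 groups, with the group mean ± SD. Ndufa11, Uqcr11, Cyc1, Cox4i1 and Atp5d show no overlap between DMSO vehicle and DMSO acetate with TMM scaling, where with neuronal scaling their folds were between -0.34 and -0.020, while Ndufs1, Sdha, Sdhb and Atp5b overlap.

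Complex IV had 13 of its 16 genes raised and the highest median of the 5 complexes, 0.62 (-0.23 when scaled on the neuronal markers). Its 11 members that are not tissue isoforms all rose, by 0.56 to 0.82, with a median of 0.64 on the TMM scale. Cox4i1 (chr8:120668222-120674207, plus strand) was at 869, 731, 824 and 875 CPM in vehicle and 1180.0, 1501, 1279 and 1361 CPM in acetate. The groups did not overlap and the fold was 0.69 (SE 0.12, edgeR adjusted p = 0.000343). Cox6a1, a small subunit near the site of cytochrome c, rose by 0.82 (SE 0.16), and Ndufa4, once assigned to complex I, by 0.58 (SE 0.13). The 5 tissue isoforms were spread more widely, from -0.24 to 1.39, with 2 raised. The muscle form Cox7a1 rose by 0.79 (SE 0.16) at low counts, 2.52, 3.52, 3.80 and 3.37 CPM against 4.85, 6.50, 5.85 and 5.68 CPM. Cox8b (chr7:140898945-140900446, minus strand) was at 5.53, 3.81, 2.92 and 3.18 CPM in vehicle and 5.80, 10.7, 11.8 and 12.4 CPM in acetate, with DMSO acetate 1 only just above the highest vehicle library. Its fold of 1.39 had an SE of 0.50 (edgeR adjusted p = 0.0300), and the call ended without any 1 of 6 libraries, with folds of at least 1.27 and an adjusted p of up to 0.0758. Those 6 were vehicle 2, 3 and 4 and acetate 2, 3 and 4 of the DMSO groups. With the non-neuronal covariate its fold turned to -0.47. Cox6a2, Cox6b2 and Ndufa4l2 had folds of 0.33, 0.10 and -0.24 (SE 0.17, 0.14 and 0.27), none of which passed.

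Complex V had 12 of its 15 genes raised (median 0.49, and -0.37 when scaled on the neuronal markers). The F1 head is taken here as the catalytic alpha and beta subunits together with the central stalk genes Atp5c1, Atp5d and Atp5e. It had 3 of 5 genes raised with a median of 0.24, and those 3 were the stalk genes. The subunits outside it had 9 of 10 raised with a median of 0.55. Atp5d (chr10:80138632-80145818, plus strand), a subunit of the central stalk, was at 473, 365, 445 and 457 CPM in vehicle and 708, 883, 744 and 773 CPM in acetate. Its groups stood clear of each other, and its fold was 0.84 (SE 0.11, edgeR adjusted p = 4.89e-05). Atp5b (chr10:128083273-128090391, plus strand), the beta subunit that makes ATP, was at 1605, 1326, 1528 and 1437 CPM in vehicle and 1601, 1711, 1759 and 1561 CPM in acetate. Those ranges overlapped, and its fold of 0.17 (SE 0.08, edgeR adjusted p = 0.0890) did not pass. Its partner in the head, the alpha subunit Atp5a1, had 0.22 (SE 0.10) and did not pass either. All 3 genes of the c ring rose, Atp5g1 by 0.62, Atp5g2 by 0.49 and Atp5g3 by 0.57 (SE 0.14, 0.08 and 0.11). Atp5l, subunit g of the membrane part, had 0.58 (SE 0.24) with no overlap between its groups and did not pass.

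The 3 other members also rose: Atp5s, a coupling factor of ATP synthase, by 0.58 (SE 0.11), Atp5sl, an assembly protein of complex I, by 0.37 (SE 0.09), and Cox7a2l, which helps complexes III and IV associate, by 0.33 (SE 0.09). With the neuronal scaling all 3 folds were below 0, at -0.28, -0.51 and -0.53. The number of members raised was between 66 and 72 when any 1 library was left out, where 20.1% to 25.2% of all genes rose. It was 74 without DMSO vehicle 1 and inhibitor vehicle 2, where 28% of all genes rose.

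**Figure D3:**
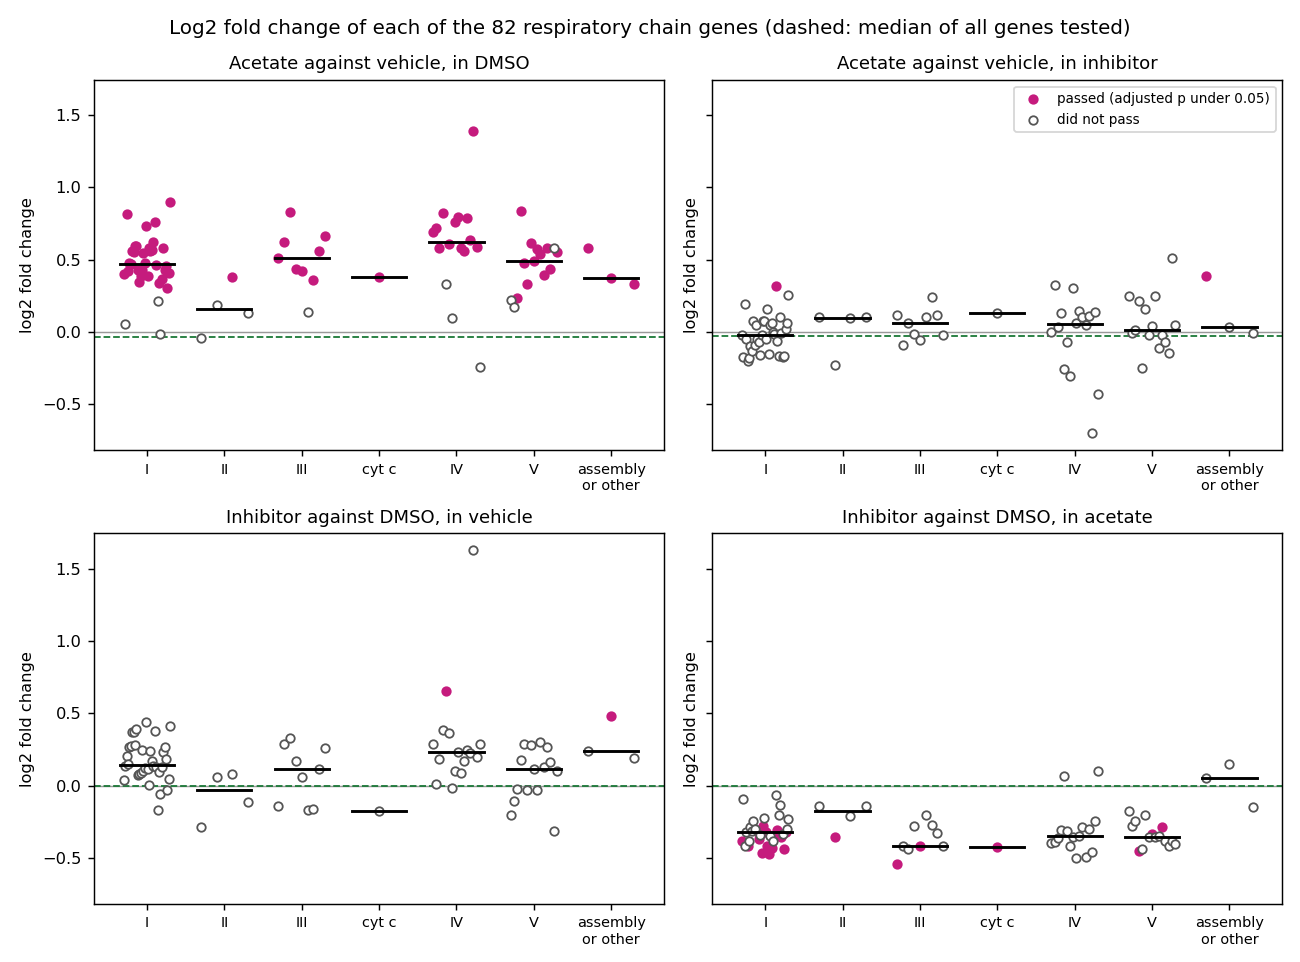
Log2 fold of each member (vertical axis), grouped by complex, in the comparisons of the study, with filled points for genes past an adjusted p of 0.05. Acetate in DMSO puts 79 of 82 members above 0 with TMM scaling, though the median is -0.38 when scaled on neuronal markers, and acetate with the inhibitor puts 44 above 0.

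Other genes of the pathway moved in smaller numbers in the DMSO cultures. Of 45 tested assembly factors, which build the complexes without staying in them, 27 rose and 2 fell, against 23.7% and 27.5% of all genes (median 0.28 on the TMM scale). Sdhaf1, a maturation factor of the complex II iron-sulphur subunit, rose by 0.67 (SE 0.09), Cox14, needed for complex IV assembly, by 0.68 (SE 0.10), and Lyrm7, which inserts the Rieske protein, by 0.57 (SE 0.09). These 3 were at -0.20, -0.18 and -0.29 when scaled on the neuronal markers. Foxred1, for complex I, fell by 0.20 (SE 0.06) and Atpaf2, for ATP synthase, by 0.19 (SE 0.07). The Foxred1 call ended without DMSO acetate 2 or 4 (adjusted p up to 0.0571), and the Atpaf2 call without DMSO vehicle 3 or 4 or DMSO acetate 3 or 4 (up to 0.0988).

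A list of 16 tested genes held regulators of respiratory genes and of mitochondrial DNA and, beside them, Atpif1 and Ucp2, which regulate neither. Of these 16, 3 rose and 3 fell, against 23.7% and 27.5% of all genes, with a median of -0.04 on the TMM scale. Atpif1, the inhibitor of reverse ATP hydrolysis by ATP synthase, rose by 0.70 (SE 0.11) and the nuclear receptor Esrra by 0.36 (SE 0.10). Nrf1, whose motif was searched above, rose by 0.23 (SE 0.09, edgeR adjusted p = 0.0464), a call that ended in 12 of 15 fits without 1 library (adjusted p up to 0.172, without DMSO vehicle 2) and held without DMSO vehicle 1, DMSO acetate 4 or inhibitor vehicle 2. Scaled on the neuronal markers, the folds of Atpif1, Esrra and Nrf1 turned to -0.16, -0.50 and -0.62. Gabpa, a subunit of the GABP factor, had a fold of -0.39 (SE 0.15) and fell, and this call ended without DMSO vehicle 2 or 3 or DMSO acetate 1, 2 or 3 (up to 0.124). Peo1, the helicase of mitochondrial DNA, fell by 0.32 (SE 0.09). Ucp2, a carrier of the inner membrane, had a fold of -3.24 (SE 0.62) and fell, and with the non-neuronal covariate its fold was 0.30. The coactivator Ppargc1a had 0.40 (SE 0.23) and Tfam, which packages mitochondrial DNA, -0.02 (SE 0.07), and neither passed. Of 18 genes used as a measure of mitochondrial mass, 10 rose and 0 fell (median 0.20 on the TMM scale), among them the outer membrane channel Vdac3 by 0.51 and the prohibitins Phb and Phb2 by 0.43 and 0.33 (SE 0.11, 0.10 and 0.06). Scaled on the neuronal markers they were at -0.34, -0.42 and -0.54.

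The folds of the members were also set beside their promoter motifs and transcript lengths. For acetate in DMSO the median fold was 0.55 with the free-base NRF1 motif and 0.51 without it, 0.56 and 0.49 for the ETS motif, and 0.43 and 0.55 for the YY1 motif, as a description over 68 genes. Member transcripts are short, from 315 to 3171 nt with a median of 786 nt, against a median of 2956 nt for the 14276 tested genes with a GENCODE length. The 34 members under 700 nt had a median fold of 0.58, the 30 from 700 to under 1500 nt 0.44, and the 18 of 1500 nt or more 0.35. All tested genes in the same classes had medians of 0.37 (n = 279), 0.13 (n = 1943) and -0.07 (n = 12054). The share raised among members was 91.2%, 86.7% and 66.7%, and among all genes 55.2%, 36.7% and 21.3%. Across the 82 members, Spearman's rho between fold and length was -0.60 (across genes, which share the libraries and are not independent replicates), and across 14276 genes it was -0.11. The mean log2 CPM of short minus long members was -0.74, -0.78, -0.75 and -0.68 in the DMSO vehicle libraries and -0.62, -0.37, -0.50 and -0.40 in the DMSO acetate libraries, so within DMSO every acetate library was above every vehicle library. With the inhibitor it was -0.54, -0.36 and -0.71 in vehicle and -0.51, -0.65, -0.61 and -0.61 in acetate, where the groups overlapped and inhibitor vehicle 2 was the highest of all 15 libraries. The part of transcript length in the members' folds was not tested further.

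**Figure D4:**
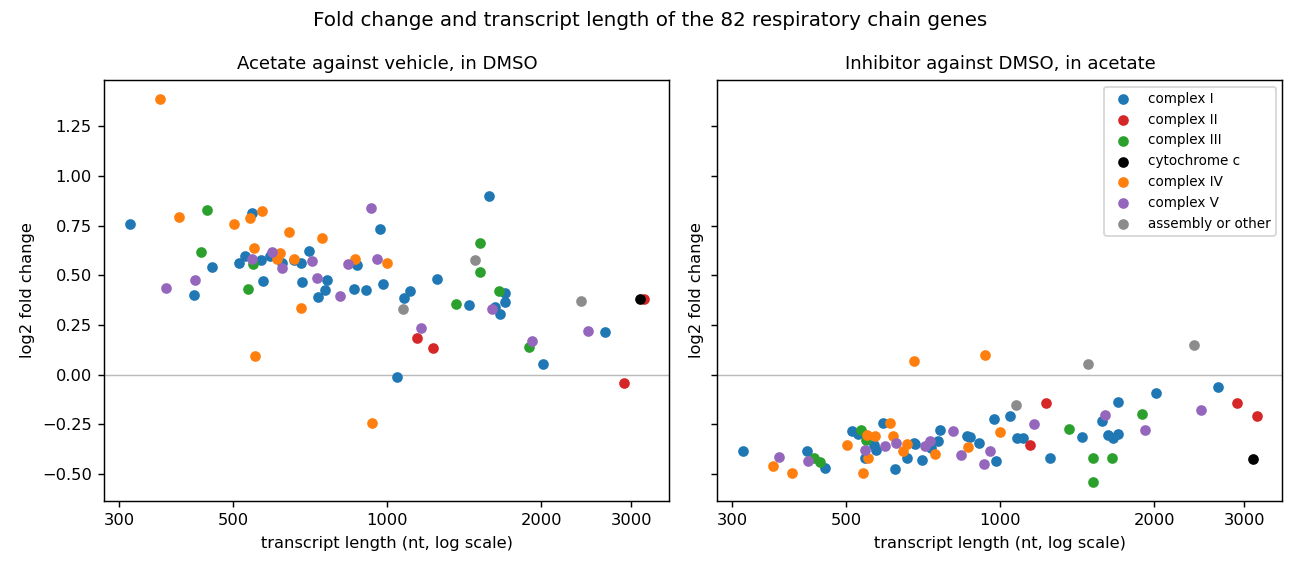
Log2 fold of each member (vertical axis) against its transcript length in nt (horizontal axis, log scale), for acetate in DMSO and for the inhibitor in acetate, with points for single genes. Short members lie highest for acetate in DMSO with TMM scaling (median 0.58 under 700 nt against 0.35 at 1500 nt or more), where the neuronal scaling moves the median of all members to -0.38, and lowest for the inhibitor in acetate (-0.37 against -0.22).

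With the ACSS2 inhibitor present, acetate gave few calls among the members: 2 of 82 rose and 0 fell, against 14.5% of all tested genes that rose and 20.6% that fell. The median log2 fold was 0.02, against -0.03 for all genes, 44 members were above 0, and 8 had an unadjusted p under 0.05, against 44.8% of all genes. DESeq2 called 3 members raised and 0 lowered, against 15.2% and 19% of the genes it tested. No member had every acetate library above every vehicle library, and 2 had every one below, against 16.4% of all genes each way. Ndufs1 was at 41.4, 59.7 and 45.8 CPM in inhibitor vehicle and 63.6, 54.5, 64.3 and 61.9 CPM in inhibitor acetate. Inhibitor vehicle 2 lay within the acetate range, and the fold was 0.32 (SE 0.12, edgeR adjusted p = 0.0487). That call ended in 11 of 15 fits without 1 library, with an adjusted p of up to 0.221 and a fold of 0.22 without inhibitor vehicle 1, and it held without DMSO vehicle 1 or 4, inhibitor vehicle 2 or inhibitor acetate 2. Atp5s was at 10.2, 14.6 and 9.87 CPM in vehicle and 13.7, 16.3, 15.1 and 15.3 CPM in acetate, with inhibitor vehicle 2 inside the acetate range, and its fold was 0.39 (SE 0.12, edgeR adjusted p = 0.0247). It no longer passed without inhibitor vehicle 1 or 3 or inhibitor acetate 2 or 4 (adjusted p up to 0.118). With the neuronal scaling both folds were below 0, at -0.25 and -0.18.

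Members that rose with acetate in DMSO had other values with the inhibitor. Ndufa11 was at 165, 237 and 148 CPM in inhibitor vehicle and 223, 218, 191 and 205 CPM in inhibitor acetate, a fold of 0.19 (SE 0.14). Uqcr11 was at 231, 322 and 203 and 293, 258, 247 and 256 CPM, a fold of 0.06 (SE 0.14). Cox4i1 was at 909, 1259 and 856 and 1109, 1019, 982 and 929 CPM, a fold of 0.00 (SE 0.13). In each of these the single library inhibitor vehicle 2 was above every acetate library, while the other 2 vehicle libraries were below them. The fold of Cox4i1 ran from -0.10 to 0.20 when 1 library was left out. Without inhibitor vehicle 2, 22 members rose and 1 fell, against 18.9% and 23.7% of all genes in that fit. Without DMSO vehicle 1 as well, 27 rose and 1 fell, against 22.5% and 26.7% of all genes, and the members' median was 0.17. Without inhibitor vehicle 1 or 3 the number of members raised was 0, against 8.16% and 8.85% of all genes. The neuronal markers rose here too, in 11 of 14 with a median of 0.50, and 9 of 9 microglial markers fell with a median of -3.70. With the neuronal scaling 0 members rose and 77 fell (median -0.56), where 69.2% of all genes fell, and with the non-neuronal covariate 0 rose and 16 fell (median -0.20), where 6.65% of all genes fell.

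Among the other lists, 5 of 45 assembly factors rose and 1 fell, against the 14.5% and 20.6% of all genes given above. Cox15, which makes haem A for complex IV, rose by 0.48 (SE 0.09, edgeR adjusted p = 0.00198), and its fold turned to -0.12 when scaled on the neuronal markers. Cox10, which acts just before it, fell by 0.25 (SE 0.08), a call that ended without inhibitor vehicle 1 or 2 or inhibitor acetate 3 (adjusted p up to 0.0999). Of the 16 genes of the regulator list 0 rose and 3 fell, and of the 18 mitochondrial mass genes 3 rose and 0 fell, the former with a share lowered and the latter with a share raised near those of all genes.

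The difference between the 2 acetate responses was tested directly. By edgeR 0 of 82 members passed in either direction, against 0.0133% of all tested genes that were higher with the inhibitor and 0.00663% that were lower. At an unadjusted p under 0.05 there were 64 members, against 20.7% of all genes, and the smallest adjusted p of a member was 0.0721. DESeq2 called 42 members lowered and 0 raised, against 7.05% and 2.39% of the genes it tested. The difference, inhibitor minus DMSO, was below 0 in 79 of 82 members with a median of -0.46 (-0.18 when scaled on the neuronal markers), and that of all genes tested was 0.00. Relative to the median of all genes, the members stood at -0.46, and at -0.33 without inhibitor vehicle 2. By length, the members' median was -0.59 under 700 nt, -0.45 from 700 to under 1500 nt and -0.27 from 1500 nt. All genes in these classes had medians of -0.46, -0.24 and 0.05. Spearman's rho between difference and length was 0.63 across the 82 members and 0.35 across 14276 genes, as a description. The part of length in the difference was not tested. Uqcr11 had a difference of -0.77 (SE 0.19, edgeR adjusted p = 0.0724) and Cox4i1 one of -0.69 (SE 0.17, edgeR adjusted p = 0.0721). Sdha and Ndufs1 had differences of 0.14 and 0.11 (SE 0.11 and 0.16). Cox8b had the largest difference, -2.09 (SE 0.72), with inhibitor vehicle 2 at 26.2 CPM against 4.48 and 5.37 in the other 2. When 1 library was left out, the difference ran from -2.47 to -0.81 for Cox8b and from -0.78 to -0.50 for Cox4i1. By complex the medians were -0.52 for complex I, -0.16 for complex II, -0.45 for complex III, -0.54 for complex IV and -0.45 for complex V. Without inhibitor vehicle 3 edgeR called 42 members lowered, against 4.89% of all genes in that fit, and without DMSO vehicle 1 and inhibitor vehicle 2 together it called 16, against 2.74%. Every other fit without 1 library called 0 lowered. Among these was the fit without inhibitor vehicle 2, where 0.0523% of all genes were lowered.

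**Figure D5:**
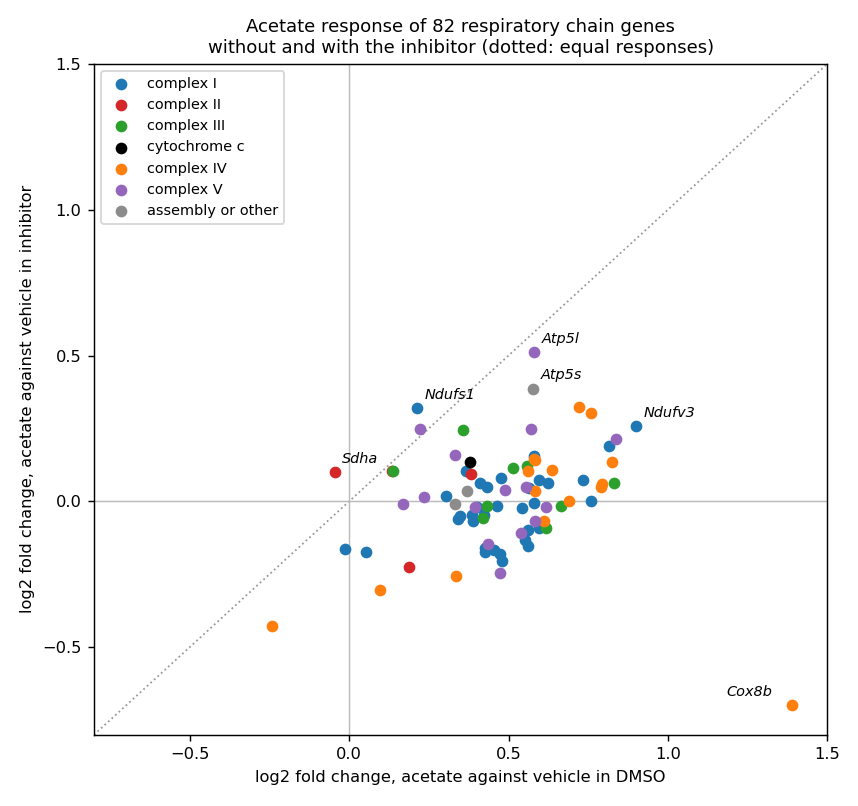
Log2 fold for acetate with the inhibitor (vertical axis) against log2 fold for acetate in DMSO (horizontal axis), with 1 point for each of 82 members. Most points lie to the right of 0 and near 0 vertically with TMM scaling (medians 0.48 and 0.02, and -0.38 and -0.56 when scaled on neuronal markers), and Sdha, Ndufs1, Cox8b, Atp5s, Ndufv3 and Atp5l are labelled.

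In vehicle, without added acetate, the inhibitor gave 2 members raised and 0 lowered, against 3.47% and 1.99% of all tested genes. These libraries also enter the acetate comparisons as controls, so the values are not independent of those above. The median log2 fold was 0.16, with 66 members above 0. At an unadjusted p under 0.05 there were 21 of 82 members, against 25.4% of all genes, and DESeq2 called 5 members raised and 1 lowered, against 6.76% and 4.99% of the genes it tested, so these counts were near those of all genes. With the neuronal scaling or the non-neuronal covariate the median was 0.01. Atp5sl was at 28.5, 31.5, 31.6 and 32.2 CPM with DMSO and 43.3, 48.6 and 37.7 CPM with the inhibitor. The groups did not overlap and the fold was 0.48 (SE 0.10, edgeR adjusted p = 0.0183), but the call ended without inhibitor vehicle 1 or 2 (adjusted p up to 0.0617). Cox6a2 was at 8.54, 8.47, 13.0 and 13.6 CPM with DMSO and 17.8, 20.2 and 13.5 CPM with the inhibitor, with a slight overlap, and its fold of 0.66 (SE 0.18, edgeR adjusted p = 0.0491) lost its call in 12 of 15 fits without 1 library (adjusted p up to 0.141, without inhibitor vehicle 2) and held without DMSO vehicle 3 or 4 or inhibitor vehicle 3.

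Sdha was lower with the inhibitor in every library, 209, 199, 198 and 187 CPM against 145, 166 and 177 CPM, with a fold of -0.29 (SE 0.08) that did not pass (edgeR adjusted p = 0.0550). Uqcrc2 was also lower in every library, at -0.16 (SE 0.06), so that 2 members had all inhibitor libraries below, against 7.36% of all genes, and 2 had all above, against 9.34%. The spread of the inhibitor vehicle group was wide: the members' mean was 7.12 ± 0.26 log2 CPM (n = 3), from 6.93 to 7.42, against 6.98 ± 0.09 in DMSO vehicle (n = 4). Without inhibitor vehicle 3, 13 members rose and 1 fell, against 6.57% and 4.14% of all genes in that fit, and without inhibitor vehicle 1 or 2 the number raised was 0, against 1.06% and 0.877%. Without DMSO vehicle 1 and inhibitor vehicle 2 together the counts were 0 and 0, against 2.71% and 2.6% of all genes, and the median was 0.05. Of the assembly factors 2 rose and 1 fell, shares near the 3.47% and 1.99% of all genes. The 1 that fell was Cox15, by 0.40 (SE 0.09, edgeR adjusted p = 0.0241), a call that ended without DMSO vehicle 2 or inhibitor vehicle 1 or 2 (adjusted p up to 0.0873). Of the 16 genes of the regulator list and the 18 mitochondrial mass genes 0 passed by edgeR, with 3 and 5 at an unadjusted p under 0.05, near the 25.4% of all genes.

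Under acetate, cultures with the inhibitor had lower member levels than cultures with DMSO: 23 of 82 members fell and 0 rose, against 3.42% and 2.36% of all tested genes. Among transcripts under 700 nt, 17.6% of members and 14.7% of all genes fell. From 700 to under 1500 nt these shares were 40.0% and 9.42%, and from 1500 nt 27.8% and 2.27%. The count of members that fell ran from 2 to 52 when 1 library was left out. It was 2 without DMSO acetate 2 or inhibitor acetate 3, where 0.598% and 0.862% of all genes fell. The DMSO acetate libraries are the same as in the comparison of acetate with vehicle in DMSO. The median log2 fold was -0.33 (-0.19 when scaled on the neuronal markers, with 0 lowered against 0.0663% of all genes), 78 members were below 0, and in 52 every inhibitor library was below every DMSO library, against 12.4% of all genes. In 0 members was every inhibitor library above, against 8.96%. By edgeR 0 of 14 neuronal markers and 0 of 9 microglial markers passed here, with medians of -0.07 and 0.09, and 2 and 0 had an unadjusted p under 0.05. Of all genes 22% had an unadjusted p under 0.05 and few passed, so lists this short would have few calls in any case. Whether cell content was equal in these groups was not tested. With the non-neuronal covariate 67 members fell, against 8.98% of all genes, with a median of -0.35.

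Complex I had 16 of 34 genes lowered (median -0.32), 13 of 27 accessory and 3 of 7 core subunits. Ndufb2, a membrane arm subunit, was at 100.4, 134, 111 and 114 CPM with DMSO and 86.2, 83.1, 83.1 and 79.8 CPM with the inhibitor. The groups did not overlap, and it fell by 0.47 (SE 0.10, edgeR adjusted p = 0.0166). In complex II the iron-sulphur subunit Sdhb was at 266, 316, 309.6 and 279 CPM with DMSO and 229.9, 234, 223 and 227 CPM with the inhibitor and fell by 0.36 (SE 0.08, edgeR adjusted p = 0.0264). Sdha, Sdhc and Sdhd had -0.14, -0.21 and -0.14 and did not pass. Those 3 had SEs of 0.08, 0.07 and 0.08.

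In complex III, Cyc1 had the smallest p of all members: it was at 363, 397, 369 and 364 CPM with DMSO and 262, 271, 254 and 241 CPM with the inhibitor. The groups were well apart and it fell by 0.54 (SE 0.08, edgeR adjusted p = 0.00250). Uqcrc1 was at 654, 689.9, 669.8 and 645 CPM and 523, 531, 466 and 470.3 CPM and fell by 0.42 (SE 0.08, edgeR adjusted p = 0.0104). In 8 of the 9 genes of complex III every inhibitor library was below every DMSO library, and the median was -0.42. Cycs was at 43.2, 51.6, 46.3 and 50.1 CPM and 33.0, 34.5, 36.4 and 38.6 CPM and fell by 0.42 (SE 0.11, edgeR adjusted p = 0.0404).

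In complex IV 0 of 16 genes passed by edgeR, though the median was -0.35 and 11 had an unadjusted p under 0.05, against 22% of all genes. Cox4i1 was at 1180.0, 1501, 1279 and 1361 CPM with DMSO and 1109, 1019, 982 and 929 CPM with the inhibitor, with no overlap and a fold of -0.40 (SE 0.12, edgeR adjusted p = 0.0599). In complex V 3 of 15 fell (median -0.36): Atp5d by 0.45 and Atp5g2 by 0.33 (SE 0.11 and 0.08), and the stalk subunit Atp5j, which was named after its values were seen. Atp5d was at 708, 883, 744 and 773 CPM with DMSO and 605, 597, 526 and 549 CPM with the inhibitor. Atp5b had -0.28 (SE 0.08) without overlap and did not pass. A difference between complexes was not tested. Atp5s, Atp5sl and Cox7a2l had 0.05, 0.15 and -0.15 and did not pass.

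The count of lowered members varied with single libraries. Beside the 2 given above without DMSO acetate 2 or inhibitor acetate 3, it was 3 without inhibitor acetate 2 or 4 (1.41% and 1.31% of all genes). Without DMSO acetate 3 or 4 it was 4 (1.54% and 1.29%), and without inhibitor acetate 1 it was 8 (1.53%). It was 14 without DMSO vehicle 3 or 4 (2.29% and 2.51%) and 52 without inhibitor vehicle 2 (5.78%). The share of all genes that fell varied with these libraries too. Cyc1, with folds between -0.56 and -0.51, and Uqcrc1, with folds between -0.45 and -0.38, kept their calls in all 15 fits without 1 library. Ndufb2 lost its call without DMSO acetate 2 or inhibitor acetate 3 (adjusted p up to 0.0661), and Atp5g2 without DMSO acetate 2 or 3 or inhibitor acetate 2, 3 or 4 (up to 0.116). Atp5d lost it without DMSO acetate 2, 3 or 4 or inhibitor acetate 2, 3 or 4 (up to 0.104), and Sdhb without any of these or inhibitor acetate 1 (up to 0.101). Cycs lost it without any of the libraries named for Sdhb or DMSO vehicle 3 or 4 (up to 0.139). DMSO acetate 2 was the highest library of its group for the members' share of gene counts, at 2.26% against 1.92% to 2.22%.

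Of the 45 assembly factors 0 rose and 2 fell, a share near the 3.42% of all genes that fell: Ecsit, for complex I, by 0.38 and Cox10 by 0.34 (SE 0.09 and 0.08). Of the 18 mitochondrial mass genes 0 rose and 5 fell, including the import pore protein Tomm40 by 0.37, the chaperonin partner Hspe1 by 0.42 and Phb2 by 0.30 (SE 0.07, 0.09 and 0.06). The calls of Ecsit, Cox10, Tomm40, Hspe1 and Phb2 all ended without DMSO acetate 2 or inhibitor acetate 3 (adjusted p up to 0.0832, 0.0818, 0.0572, 0.0768 and 0.0572). Of the 16 genes of the regulator list 0 passed by edgeR, with 3 at an unadjusted p under 0.05, against 22% of all genes. By length, the median fold was -0.37 for the members under 700 nt, -0.32 from 700 to under 1500 nt and -0.22 from 1500 nt, and for all genes -0.28, -0.14 and 0.02. Spearman's rho between fold and length was 0.50 across the 82 members and 0.27 across 14276 genes, again as a description across genes.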

How the data were processed

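RNA from 15 libraries of mouse hippocampal neuron cultures was made into libraries with a strand-specific kit (NEBNext Ultra II Directional), per the labels' protocols. Raw counts of reads per gene were deposited, made by the authors with STAR 2.5.2a and HTSeq 0.6.1p1 against mm10, per the submitters' processing notes, which also name DESeq2. For the gene annotation, counting mode and strand setting the sources used here give nothing. Summary lines of the counting, such as reads aligned to several places, held 38.9% to 47.4% of each column and entered neither library sizes nor tests.

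Columns were mapped to samples by their titles. Members and gene lists were chosen with earlier results of these data known. Genes were filtered with filterByExpr, scaled by TMM and fitted with edgeR 4.0.16 (quasi-likelihood, limma 3.58.1, R 4.3.3) with 1 mean per group over all 15 libraries, and p-values were adjusted by Benjamini-Hochberg over 15075 genes. Log2 CPM used a prior count of 2. Named members are a set of subunits with known roles, up to 2 members of highest and 2 of lowest fold per complex and comparison, and up to 10 by smallest p among those that passed in the inhibitor comparisons. From other lists up to 3 of smallest p, and those given for their role or direction, are named. Levels per kilobase used 1 GENCODE M21 protein-coding transcript per gene, chosen by RefSeq match, then annotation rank, then shortest length. The NRF1 and YY1 motifs are shortened cores, adopted for length limits after counts with longer forms had been seen; the longer forms were in fewer windows of members and of tested genes alike, and their counts are not given here. Shares of all genes beside a count come from the same fit, for DESeq2 over the genes it gave an adjusted p. Alternatives were DESeq2 1.42.0, upper-quartile scaling, no filter, fits on the compared groups only and a replicate block. Others were scaling on the summed counts of the neuronal markers, the mean over markers of other cell types as a covariate, and leaving out libraries. No 2 libraries of a group agreed within sampling noise: the chi-square per gene was 4.65 to 144 over 21 pairs.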

Additional observations from a re-analysis of the deposited data

Results flagged for a closer look

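A check for a library far from the rest of its group covered 43 members with values given here. It also covered the mean log2 CPM of each complex, of cytochrome c and of all members. Of 150 groups of 4 libraries checked, 2 were flagged. Chance alone flags about 1 in 20 such groups. Sdhc, a membrane anchor of complex II, was at 225.8 CPM in DMSO acetate 1, against 245.5 to 249.2 CPM in the other 3 libraries of that group. It was still above every DMSO vehicle library. Cox6b2, the testis form of a complex IV subunit, was at 24.55 CPM in inhibitor acetate 1, against 17.66 to 18.59 CPM in the other 3 libraries of its group.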

How the results depend on the processing

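Scaling on the neuronal markers turned most folds of acetate in DMSO, with members raised and lowered going from 69 and 0 to 0 and 63. The folds were then Ndufa11 -0.042, Ndufs1 -0.64, Ndufa10 -0.81, Ndufs7 -0.44, Ndufv1 -0.55, Ndufs4 -0.49, Sdhb -0.68, Sdhc -0.48, Sdhd -0.72, Cyc1 -0.34, Uqcr11 -0.031, Uqcrc1 -0.44, Uqcrfs1 -0.49, Uqcrc2 -0.72, Cycs -0.47, Cox4i1 -0.17, Cox5a -0.12, Cox6a1 -0.025, Cox6a2 -0.55, Cox7a1 -0.10, Cox6b2 -0.76, Ndufa4 -0.26, Atp5a1 -0.62, Atp5b -0.69, Atp5d -0.020, Atp5g1 -0.24, Atp5g2 -0.37, Atp5g3 -0.28, Atp5s -0.28, Atp5sl -0.51, Cox7a2l -0.53, Sdhaf1 -0.20, Cox14 -0.18, Lyrm7 -0.29, Atpif1 -0.16, Esrra -0.50, Nrf1 -0.62, Phb2 -0.54, Vdac3 -0.34, Phb -0.42, Ndufb4 -0.12 and Ndufc1 -0.10. For acetate with the inhibitor the same scaling gave 0 and 77 in place of 2 and 0, with Ndufs1 -0.25, Atp5s -0.18, Ndufa11 -0.37, Uqcr11 -0.50, Cox4i1 -0.56, Cyc1 -0.48, Sdha -0.49, Atp5d -0.36 and Cox15 -0.12. With the mean over markers of other cell types as a covariate, acetate in DMSO gave 4 members raised, and Cycs was at -0.062, Cox8b at -0.47 and Ucp2 at 0.30. That covariate gave 16 lowered and 0 raised for acetate with the inhibitor, 22 lowered for the difference of responses, 1 and 3 for the inhibitor in vehicle, and 67 lowered for the inhibitor in acetate. Of all genes, 6.65% were lowered for acetate with the inhibitor and 3.2% for the difference. For the inhibitor in vehicle 7.43% were raised and 6.52% lowered, and for the inhibitor in acetate 8.98% were lowered. That covariate nearly tracked acetate and varied within groups mostly through DMSO vehicle 1 and inhibitor vehicle 2. The cause of these changes was not tested.

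DESeq2 gave 42 lowered for the difference, 5 raised and 1 lowered for the inhibitor in vehicle, and 43 lowered for the inhibitor in acetate. Upper-quartile scaling gave 1 lowered for acetate with the inhibitor, against 21.1% of all genes. For the inhibitor in vehicle it gave 1 raised and 1 lowered, against 2.97% and 2.46%. Dropping the filter gave 1 raised in each of these comparisons, against 10% and 1.95% of all genes. Fits on the compared groups only gave 0 raised for acetate with the inhibitor, against 11.7% of all genes. They also gave 0 raised for the inhibitor in vehicle, where 0 of 14977 genes passed, so that count says nothing about the members. For the inhibitor in acetate they gave 64 lowered, and they could not be made for the difference. For the inhibitor the neuronal scaling gave 0 raised in vehicle and 0 lowered in acetate, against 0.146% and 0.0663% of all genes. Without DMSO vehicle 1 and inhibitor vehicle 2 together, 27 members rose and 1 fell for acetate with the inhibitor, 16 were lowered in the difference, 0 rose for the inhibitor in vehicle and 66 fell for the inhibitor in acetate. Of all genes, those lowered for the inhibitor in acetate were 6.73% with DESeq2, 10.6% in fits on the compared groups, 10.7% without these 2 libraries and 3.42% as reported.

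With 1 library left out at a time, 66 to 72 members rose with acetate in DMSO and 0 to 22 with acetate and the inhibitor, where 0 to 1 fell. The difference had 0 to 42 lowered, the inhibitor in vehicle 0 to 13 raised and 0 to 1 lowered, and the inhibitor in acetate 2 to 52 lowered. Of all genes in these fits, 20.1% to 25.2% rose with acetate in DMSO. With acetate and the inhibitor 8.16% to 18.9% rose and 12.3% to 23.7% fell. In the difference 0% to 4.89% were lowered. For the inhibitor in vehicle 0.877% to 6.57% rose and 0.393% to 4.14% fell, and in acetate 0.598% to 5.78% fell. Of the named genes that passed, 35 of 40 kept their call in every such fit for acetate in DMSO, 1 of 4 for acetate with the inhibitor, 0 of 3 for the inhibitor in vehicle and 2 of 14 for the inhibitor in acetate. Where the group of inhibitor vehicle fell to 2 libraries, their spread was taken as that of all groups.

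Replicate numbers recur across groups, but only 6 of 21 same-numbered pairs had correlated deviations over 0.1 (range -0.65 to 0.38), so the numbers do not pair the libraries. The replicate block gave 67 members raised with acetate in DMSO (22.4% of all genes) and 1 with acetate and the inhibitor (12.7%). In the difference it gave 0, against 0.0133% of all genes raised and 0.00663% lowered. For the inhibitor in vehicle it gave 1 raised and 1 lowered, near the 2.13% and 1.35% of all genes. It gave 7 lowered (1.87% of all genes) for the inhibitor in acetate. Depth limits only the lowest members, such as Ndufa4l2 with 497 counts over all libraries, and the number and spread of inhibitor vehicle libraries limit the comparisons that use them.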
